A study of Mus musculus with 8 samples.

Results

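Conventional and migratory dendritic cells were examined in single cells from mouse tongue epithelium in which human papillomavirus oncogenes, an active YAP1, or both had been switched on. Of 42550 cell barcodes in 8 libraries, 25199 held 1000 to 5500 genes, at most 30000 unique molecular identifiers (UMIs, 1 per captured RNA molecule) and at most 7% mitochondrial UMIs, and 11763 of these were low in keratin, with 5 keratin genes together below 0.5% of UMIs. A low-keratin cell was taken as a dendritic cell when it held at least 10 UMIs of Cd74, at least 2 of the 7 markers Flt3, Zbtb46, Xcr1, Clec9a, Cd209a, Ccr7 and Fscn1, at most 1 UMI of Cd207, none of Cd3e or Siglech, and fewer than 5 of C1qa, C1qb and C1qc together. The members were thus chosen by measured values, and they numbered 169 cells, 1.44% of low-keratin cells and 0.671% of the cells within the limits. Statements on the genes of this rule, and on subsets set from them, are therefore descriptions, without a test.

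The mice carried Krt14-CreERT, LSL-rtTA and, per the study's methods, tetON_H2B-GFP, so that tamoxifen injected into the tongue and doxycycline chow switched on transgenes in keratinocytes descended from Krt14-expressing basal cells. Group N had no further transgene, E also carried tetON_E6-E7, Y carried tetON_YAP1S127A, a YAP1 that escapes inhibitory phosphorylation, and EY carried both. The Krt14 promoter directs the recombinase to keratinocytes, so dendritic cells were not the cells targeted. Each group had 2 libraries, named by group and replicate (N1, N2), from mice of 8 to 16 weeks taken at day 15 of induction, and the title of N2 holds more than 1 animal number, so that library may pool mice.

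Conventional dendritic cells take up antigen in tissues and present it to T cells on major histocompatibility complex (MHC) molecules. They depend on the cytokine receptor Flt3 and are marked by the transcription factor Zbtb46. Type 1 cells (cDC1), which carry Xcr1 and Clec9a and depend on Irf8 and Batf3, are known for cross-presenting antigen to CD8 T cells. Type 2 cells, many of which carry the lectin Cd209a, mainly serve CD4 T cells. On maturation both kinds raise the chemokine receptor Ccr7, which guides them to lymph nodes, and Fscn1, which bundles actin in their long extensions. Cells of this state are called migratory or mature regulatory dendritic cells, and they carry costimulatory and inhibitory ligands together.

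The dendritic cells held a median of 14015 UMIs and 3042 genes per cell, and a median of 268 Cd74 UMIs. Of the 169 cells, 78 held exactly 2 of the 7 markers, 60 held 3, 28 held 4 and 3 held 5. Just outside, 159 cells met every other condition with 1 marker only, 35 were left out by Siglech alone, 11 by Cd3e alone and 9 by the C1q genes alone. Cd207, the langerin of Langerhans cells, was at 1 UMI in 10 members, while 1 cell outside held 2 and 48 held 3 or more. Libraries held 46483469 to 102427359 UMIs in all, and summed dendritic UMIs ran from 57470 to 644495, so that 1 UMI was worth 1.55 to 17.4 CPM (UMIs of a gene per 1000000 summed UMIs). Pairs of libraries shared 2 to 19 barcode sequences among all their cell barcodes, and no 2 dendritic cells of different libraries shared one. Levels below are CPM of the UMIs summed over the dendritic cells of a library or a subset, given in the order replicate 1, replicate 2. Gene positions span the whole gene, exons and introns, in GENCODE's annotation of GRCm38.

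Of the markers that the selection did not use, 11 of cDC1 cells summed to 1693 CPM in the members against 375 in all other low-keratin cells, and 12 of migratory cells to 3872 against 699.7 CPM, both higher in each of the 8 libraries. The 9 markers of conventional type 2 cells (cDC2) did not set the members apart, at 541 against 588 CPM, and were higher in the members in N2, E2 and Y2 and lower in the other 5 libraries. The label thus rests on cDC1 and migratory markers. Against all other low-keratin cells the highest folds belonged to Il12b (79.6-fold), which encodes the p40 chain of interleukin-12 and interleukin-23, the chemokine gene Ccl22 (60.1-fold) and the amino acid oxidase gene Il4i1 (32.2-fold), followed by Sept3, Gnb4 and Tbc1d4. Wdfy4, required for cross-presentation, was at 130 CPM against 12.6, and the protease inhibitor gene Cst3 at 17744 CPM against 2177, with Cst3 UMIs in all 169 cells. Cd207 cells, which held at least 2 UMIs of Cd207 and met the same limits on Cd74, Cd3e, Siglech and C1q, had like levels of several of these genes, with Cst3 at 20638, Wdfy4 at 115, Tbc1d4 at 641 (548 in the members) and Sept3 at 144 CPM (101 in the members), and lower levels of others, with Il12b at 2.03 CPM against 227, Il4i1 at 137 against 508 and Ccl22 at 397 against 717. Of 14 marker sums of other cells 11 were lower in the members than in the other low-keratin cells, among them those of T cells (40.6 against 1744 CPM), neutrophils (129 against 35338) and macrophages (178 against 3832). The macrophage sum includes the C1q genes, and the keratinocyte sum holds only the keratins of the rule. The plasmacytoid sum includes Siglech and the Langerhans sum Cd207. The rule itself limits these genes, so these sums were pushed down by the choice of cells. Higher in the members were Langerhans markers (1682 against 468 CPM), mast cell markers (78.7 against 33.2) and endothelial markers (34.1 against 28.4). Ptprc, the pan-leukocyte gene CD45, held a UMI in 145 of 169 cells. Its level was 419 and 478 in N, 247 and 312 in E, 231 and 378 in Y, and 179 and 17.4 in EY CPM, so EY2 was far below the other libraries, with Ptprc in 1 of its 9 cells and a median of 6250 UMIs per cell. EY1 was low as well, with Ptprc in 6 of 11 cells at a median of 15484 UMIs. The other libraries held Ptprc in 7 of 7 and 35 of 37 cells (N), 19 of 22 and 7 of 7 (E), and 33 of 36 and 37 of 40 (Y). The keratinocyte marker sum was 1079 CPM in EY2 against 118 to 375 in the other 7 libraries. Values with EY2 are therefore also given beside EY1. In Y2, 1 cell carried 51 of 51 Col1a1 UMIs of the dendritic cells, a fibroblast gene.

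**Figure D1:**
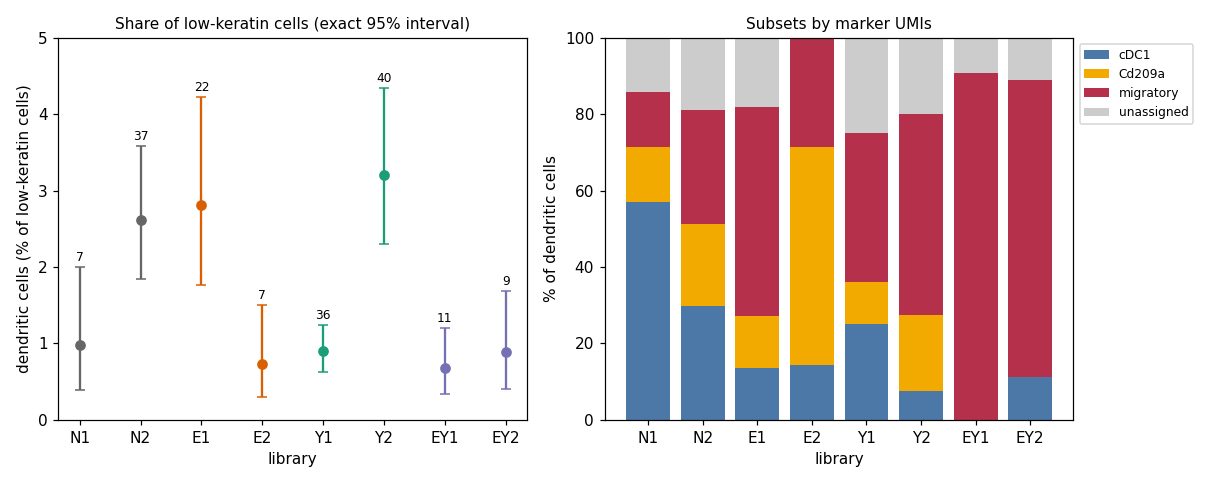
Left, dendritic cells as a percentage of low-keratin cells in each of the 8 libraries, with exact 95% intervals that cover counting error only and the number of cells above each point. Right, the 4 subsets as percentages of the dendritic cells of each library. Shares ran from 0.675% in EY1 to 3.21% in Y2, and the migratory subset was the largest in both EY libraries.

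The share of dendritic cells among low-keratin cells differed more within groups than between them. In N it was 0.978% (7 cells, 95% exact Clopper-Pearson interval 0.394 to 2.0) and 2.61% (37 cells), in E 2.81% (22 cells) and 0.734% (7 cells), in Y 0.899% (36 cells) and 3.21% (40 cells), and in EY 0.675% (11 cells) and 0.890% (9 cells). Both EY libraries were low, but N1, E2 and Y1 were near them. The mean was 1.42% ± 1.20 (SD, n = 4) with YAP1S127A and 1.78% ± 1.08 without, a difference of -0.365 points (p = 0.829, exact permutation test, two-sided, with 70 labellings). For E6-E7 the difference was -0.646 points (exact permutation p = 0.286). With 4 libraries against 4 the smallest p is 0.0286, and intervals cover counting error only.

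Subsets were set from the UMIs of Xcr1 plus Clec9a, of Cd209a and of Ccr7 plus Fscn1, each cell going to the highest of these 3 sums when it reached 2 UMIs. This gave 32 cells of the cDC1 subset, 28 of the Cd209a subset, 78 of the migratory subset and 31 unassigned cells. Only 6 cells held 2 or more UMIs of both the cDC1 and the migratory pair, 2 cells of both Cd209a and the migratory pair, and 0 of 169 of both cDC1 genes and Cd209a, which allows a share of up to 1.78%. The migratory share of dendritic cells was 14.3% and 29.7% in N, 54.5% and 28.6% in E, 38.9% and 52.5% in Y, and 90.9% and 77.8% in EY. The cDC1 share ran the other way, at 57.1% and 29.7% in N against 0 of 11 cells and 1 of 9 cells in EY. No cell of either EY library fell in the Cd209a subset, while N held 1 and 8 cells, E 3 and 4, and Y 4 and 8.

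These shares come from genes of the rule and are given without a test. The migratory share averaged 65.0% ± 23.6 (SD, n = 4) with YAP1S127A against 31.8% ± 16.7 without, 33.2 points higher, and the 2 arms overlapped. With E6-E7 it was 29.1 points higher, again with overlap. The cDC1 share was -17.8 points apart for YAP1S127A and -20.1 points for E6-E7. The Cd209a share was -18.9 points apart for YAP1S127A and 0.940 points for E6-E7. Libraries differ in depth: after each cell was thinned to 3000 UMIs, 84 cells met the rule and the migratory difference for YAP1S127A was 18.6 points. At that depth the cDC1 difference for YAP1S127A turned to 10.6 points, resting on 8 cDC1 cells in all.

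**Figure D2:**
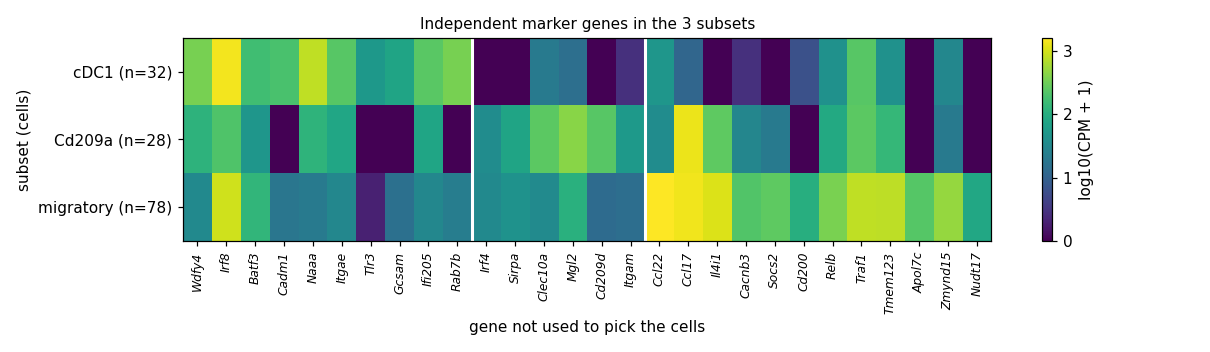
Summed level, as log10(CPM + 1), of 28 genes in the cDC1 (32 cells), Cd209a (28 cells) and migratory (78 cells) subsets. None of these genes was used to pick the cells. From left to right they are cDC1, cDC2 and migratory markers, parted by white lines. Most genes of each block are highest in the subset they mark, Irf8 and Batf3 are high in cDC1 and migratory cells, and Ccl17 is high in both the Cd209a and migratory subsets.

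The subsets were told apart by genes that had no part in the choice. The summed level of 11 cDC1 markers was 3888 CPM in the cDC1 subset, 649 in the Cd209a subset and 1238 in the migratory subset, and all 11 were highest in the cDC1 subset. Among them Irf8, the transcription factor on which these cells depend, was at 1416 CPM in the cDC1 subset, 211 in the Cd209a subset and 939 in the migratory subset. Naaa, a lysosomal amidase gene, measured 780.4, 122 and 20 CPM in that order of subsets, and Cadm1, an adhesion molecule gene, measured 192, 0 and 17.1 CPM. Rab7b, a small GTPase gene of the endosomal pathway, was at 353, 0 and 21.9 CPM. The 9 cDC2 markers summed to 1288 CPM in the Cd209a subset, 227 in cDC1 and 380 in migratory cells, and 8 of 9 were highest in the Cd209a subset. Among these the lectin genes Mgl2 (14, 435 and 107 CPM in the same order) and Clec10a (19.2, 249 and 33.3 CPM) led, although 1 cell gave 28.6% of the Clec10a UMIs of that subset. Epcam and Cdh1, adhesion genes that Langerhans cells also carry, were at 191, 1084 and 153 CPM and 19.2, 247 and 38.1 CPM. The Langerhans marker sum was 4400 CPM in Y2 and 144 to 2210 in the other 7 libraries, and its part in the results was not tested.

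Migratory cells carried a broad maturation programme. The 12 migratory markers summed to 7366 CPM against 409 in cDC1 and 2112 in Cd209a cells, and all 12 were highest in the migratory subset. Within the 4 libraries that held at least 3 cells of the subsets compared (N2, E1, Y1 and Y2), 16 of 18 genes of a longer maturation list were higher in migratory than in cDC1 cells in every library, and 17 of 18 than in Cd209a cells. The share of all genes that keep such an order in every library was not computed. The signalling adapter gene Traf1 was at 234, 249 and 783 CPM in cDC1, Cd209a and migratory cells, and Relb, an NF-kB subunit gene, at 40.2, 86.6 and 365 CPM. Il4i1 measured 0, 253 and 1081 CPM, Samsn1 10.5, 179.9 and 1181 CPM and the membrane protein gene Tmem123 40.2, 135 and 767 CPM. Fabp5, a fatty acid carrier gene, was at 77, 926 and 3227 CPM.

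Ligands that stimulate and ligands that restrain T cells were high together in migratory cells. Cd40, the receptor for T cell help, was at 42, 111 and 168 CPM in the order above, and Cd86, a CD28 ligand, at 345, 229 and 452 CPM. Cd274 (PD-L1) measured 36.7, 68.9 and 281 CPM, Pdcd1lg2 (PD-L2) 3.5, 42.2 and 171 CPM and Cd200, an inhibitory ligand, 5.25, 0 and 100 CPM. Of 12 genes of this kind, 7 were higher in migratory than in cDC1 cells in all 4 libraries, 1 was lower in all 4, and 10 had their highest summed level in the migratory subset. For these counts too, the share over all genes was not computed. The MHC class II list summed to 27874 CPM in cDC1, 28846 in Cd209a and 21026 in migratory cells. The immediate early and heat shock list, genes that respond within minutes to stress and handling, summed to 7704, 11124 and 4592 CPM. Cytokine genes were unevenly placed: Il12b was at 24.5, 0 and 520 CPM but held UMIs in 27 of 169 cells, and 1 migratory cell gave 30.8% of the UMIs of that subset. Ccl5 was at 3.5, 4.44 and 500 CPM with 49.1% from 1 cell, and Gzmc and Inhba, high in the migratory subset, came to 93.0% and 97.3% from 1 cell each.

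Genes were tested on UMIs summed per library with edgeR's quasi-likelihood test, in the 5 libraries with at least 10 dendritic cells (N2, E1, Y1, Y2 and EY1, 146 cells). An additive model gave 1 effect for E6-E7 and 1 for YAP1S127A with 2 residual degrees of freedom. Groups N, E and EY each rest on 1 library there, which is assumed to vary like those of Y. N1, E2 and EY2, with 23 cells together, took no part in that fit, so their values serve as a look at the same genes in other libraries. A second fit, chosen after the data were seen, took all 8 libraries with no minimum of cells. Because a summed level mixes subsets, a change can come with a shift of subset shares, and fewer cells of a kind cannot be told apart from less RNA per cell in the sums.

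With E6-E7, 6 of 5677 genes passed at an adjusted p below 0.05, or 0.106% of those tested, and all 6 were higher. The smallest adjusted p belonged to Cxcl9 (chr5:92321347-92328079, minus strand), a chemokine induced by interferon-gamma that draws T cells through CXCR3. Its level was 115 and 178 in N, 2262 and 929 in E, 75.2 and 46.5 in Y, and 396 and 487 in EY CPM. All 4 libraries with E6-E7 lay above all 4 without, and E lay above EY. Such a gap in 8 libraries was met by 3.57% of 3001 genes upwards and 3.67% downwards, and in the 5 libraries no overlap in either direction was met by 27.1%. The log2 fold change was 3.17 ± 0.35 (SE; edgeR adjusted p = 0.00566) in 5 libraries and 3.13 ± 0.31 (edgeR adjusted p = 0.00017) in all 8. UMIs of Cxcl9 were found in 48 cells, and 1 cell of E1 gave 19.6% of them. C1q macrophages, the low-keratin cells with at least 5 C1q UMIs, had 315 and 207 in N, 646 and 556 in E, 635 and 49.3 in Y, and 1237 and 2156 in EY CPM, so that E, EY and Y1 lay above N there, and Y2 below.

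The other 5 genes were Bcl2a1b, Socs2, Gbp2, Gm15056 and Tubb2b. Bcl2a1b, an anti-apoptotic Bcl-2 relative, was at 592 and 515 in N, 1471 and 1574 in E, 985 and 806 in Y, and 3089 and 2854 in EY CPM, again with no overlap between the libraries with and without E6-E7. Its log2 fold change was 1.69 ± 0.23 (edgeR adjusted p = 0.0153), and reads of this gene could have been split with near-identical copies such as Bcl2a1a. Socs2, a suppressor of cytokine signalling that is part of the maturation list, measured 57.7 and 31 in N, 136 and 62.4 in E, 123 and 109.8 in Y, and 451 and 157 in EY CPM, with a log2 fold change of 2.03 ± 0.32 (edgeR adjusted p = 0.0374), and E2 lay below both Y libraries. Gbp2, an interferon-induced GTPase gene, measured 317 and 74.5 in N, 317 and 305 in E, 49.6 and 20.5 in Y, and 217 and 87 in EY CPM (log2 fold change 2.39 ± 0.39, edgeR adjusted p = 0.0486). N1, which was not in the fit, was as high as E1 there, and over 8 libraries the adjusted p was 0.170. Gm15056 and Tubb2b also passed, with UMIs in 12 cells each and 34.4% and 38.9% from 1 cell, and Gm15056 was at 114 and 83.7 in N, 546 and 703 in E, 256 and 20.6 in Y, and 882 and 640.4 in EY CPM in macrophages. Of the 6 genes, 4 moved the same way in the 3 libraries left out, Gbp2 and Tubb2b being the exceptions. This sets the mean of E2 and EY2 against N1 alone, and the share over all genes was not computed. Restricted to migratory cells, Cxcl9 stood at a log2 fold change of 2.67 and Bcl2a1b at 0.71, and neither passed (edgeR adjusted p = 0.576 and 0.555).

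**Figure D3:**
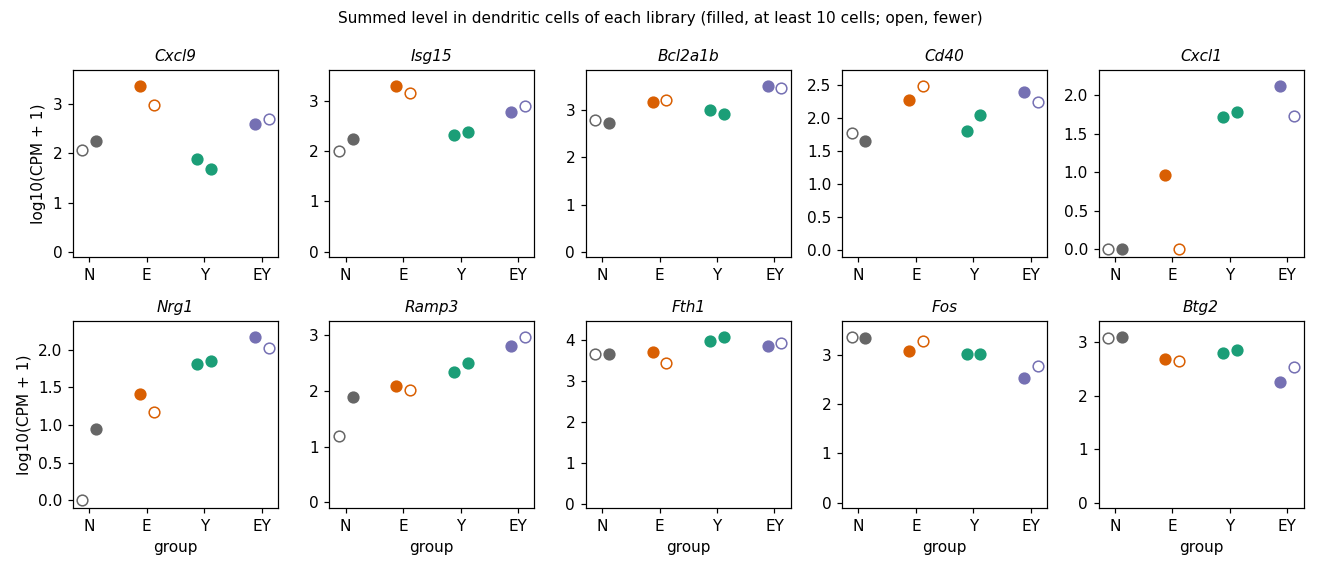
Summed level of 10 genes in the dendritic cells of each library, as log10(CPM + 1), by group. Filled points are libraries with at least 10 dendritic cells and open points those with fewer. The top row shows 4 genes higher with E6-E7 and Cxcl1, and the bottom row shows 3 genes higher and Fos lower with YAP1S127A, and Btg2 lower with E6-E7. Each of the 10 passed in the fit over all 8 libraries.

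Over all 8 libraries 33 of 3001 genes passed for E6-E7 (1.1%), 18 higher (0.6%) and 15 lower (0.5%), and 3 of the 6 genes above were among them. Isg15 (chr4:156199424-156200818, minus strand), a ubiquitin-like protein induced by interferons, was at 101 and 172 in N, 1933 and 1428 in E, 203 and 238 in Y, and 597 and 783 in EY CPM. Its lowest level with E6-E7 was above its highest without, and the log2 fold change was 2.57 ± 0.38 (edgeR adjusted p = 0.0125). Cd40 measured 57.7 and 43.4 in N, 185 and 305 in E, 63.2 and 112 in Y, and 249.8 and 174 in EY CPM (edgeR adjusted p = 0.0312) and Cd86 173 and 279 in N, 622 and 575 in E, 414 and 260.5 in Y, and 538 and 609 in EY CPM (edgeR adjusted p = 0.0497), both without overlap. Ccnd2, the cell cycle gene of cyclin D2, was at 173 and 118 in N, 519 and 638 in E, 438 and 290.2 in Y, and 1021 and 1096 in EY CPM, and the receptor kinase gene Axl at 0 and 15.5 in N, 61.8 and 76.3 in E, 23.9 and 33.5 in Y, and 97.7 and 87 in EY CPM. Nfkb2, Il4i1, Samsn1 and Socs2, all on the maturation list, were higher too. Among the genes that fell were Btg2, a growth-restraining early response gene, at 1183 and 1244 in N, 490.4 and 437 in E, 634 and 726 in Y, and 179 and 348 in EY CPM (log2 fold change -1.38 ± 0.24, edgeR adjusted p = 0.0190), Fosb, a subunit of AP-1, and Wdfy4, at 231 and 158 in N, 82.4 and 76.3 in E, 169 and 112 in Y, and 54.3 and 34.8 in EY CPM.

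Interferon-stimulated genes shared their sign for E6-E7. All 18 tested members were higher with E6-E7 in the 5 libraries, with a median log2 fold change of 1.65 beside -0.02 over all genes, although 1 passed, Gbp2. In the 8 libraries all 13 tested members were higher (median 1.60) and 1 passed, Isg15. The summed level of the 20 measured genes was 1399.8 and 1237 in N, 6939.8 and 5561 in E, 1129.9 and 1546 in Y, and 1678 and 2053 in EY CPM. E1 and E2 were far above the other 6 libraries, and EY was above N by less. Rsad2 (viperin) was at 0 and 6.21 in N, 284 and 339.7 in E, 3.42 and 55.8 in Y, and 0 and 0 in EY CPM, Ifit1 at 0 and 7.76 in N, 128 and 173 in E, 1.71 and 33.5 in Y, and 0 and 34.8 in EY CPM, and Irf7, the transcription factor that amplifies the response, at 101 and 112 in N, 729 and 319 in E, 82.1 and 104 in Y, and 38 and 174 in EY CPM. For YAP1S127A 17 of 18 were negative, with a median of -0.81. C1q macrophages of the same libraries had 1619 and 1509 in N, 5539 and 5757 in E, 2560.2 and 2587 in Y, and 3190.4 and 2477 in EY CPM, so the high E level was present in macrophages as well. The macrophage sum lay above the dendritic sum in every library but E1. Cxcl10, another CXCR3 ligand, was at 0 and 24.8 in N, 886 and 1394 in E, 42.7 and 85.6 in Y, and 119 and 17.4 in EY CPM in dendritic cells, so E lay above the other 6 libraries, EY1 above N and Y, and EY2 below N2.

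**Figure D4:**
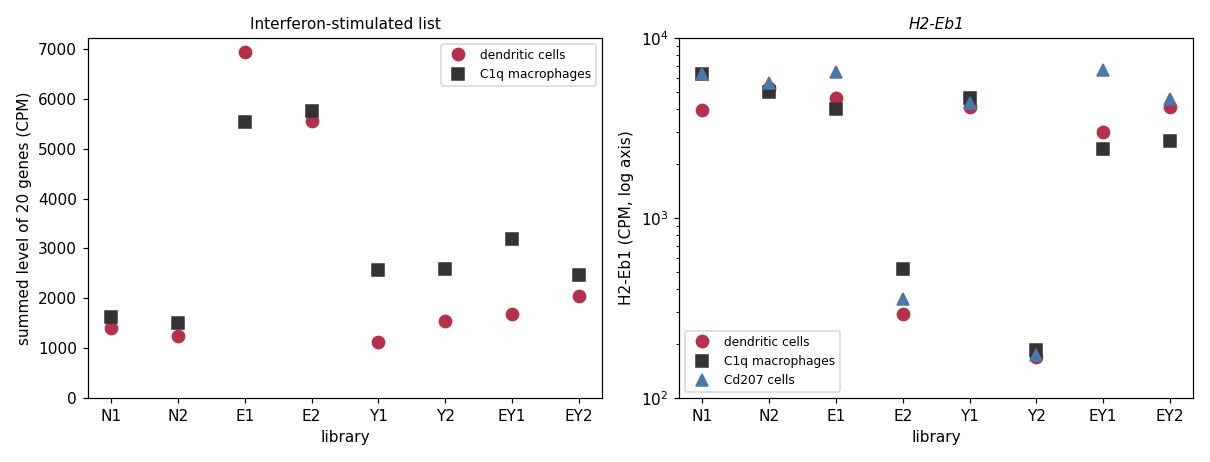
Left, summed level of 20 interferon-stimulated genes in dendritic cells (circles) and C1q macrophages (squares) of each library, in CPM. Right, H2-Eb1 level on a log axis in dendritic cells, macrophages and Cd207 cells. E1 and E2 hold the highest interferon sums in both cell types, and E2 and Y2 hold the lowest H2-Eb1 in all 3.

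Promoters were searched for 3 motifs in genes called for a transgene and in cytokine, chemokine and maturation genes, and the 5 that held a match are shown to give its letters and place. The sequences are RefSeq's for GRCm38.p6, from each gene's own strand, 5′ to 3′, and capitals mark matches on either strand. The first 2 are spellings of an NF-kB motif, GGG and TTTCC with any 2 bases between, and GGG and TTCC with any 2 bases between. The last is a core of the interferon response element, GAAA and GAAA with any 2 bases between. The motifs and genes were chosen after the gene values were seen.
Cxcl9, chr5:92328080-92328229, minus strand: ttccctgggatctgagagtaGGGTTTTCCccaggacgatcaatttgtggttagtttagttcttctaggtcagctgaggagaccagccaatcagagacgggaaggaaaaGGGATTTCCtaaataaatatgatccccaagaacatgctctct
Cxcl10, chr5:92348970-92349119, minus strand: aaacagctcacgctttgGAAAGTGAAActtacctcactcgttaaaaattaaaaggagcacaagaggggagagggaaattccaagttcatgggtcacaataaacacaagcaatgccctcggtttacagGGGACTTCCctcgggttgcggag
Gbp2, chr3:142620513-142620662, plus strand: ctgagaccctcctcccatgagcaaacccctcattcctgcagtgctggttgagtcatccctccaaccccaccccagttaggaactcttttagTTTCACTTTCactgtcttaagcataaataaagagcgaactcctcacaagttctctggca
Cxcl1, chr5:90891095-90891244, plus strand: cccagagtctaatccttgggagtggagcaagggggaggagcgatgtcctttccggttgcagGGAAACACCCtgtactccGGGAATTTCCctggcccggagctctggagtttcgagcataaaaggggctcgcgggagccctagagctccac
Cxcl3, chr5:90785951-90786100, plus strand: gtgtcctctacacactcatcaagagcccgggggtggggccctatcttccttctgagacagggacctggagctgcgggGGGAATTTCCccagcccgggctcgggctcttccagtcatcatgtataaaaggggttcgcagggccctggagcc

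Of 21 genes looked for, 16 had a promoter entry and 11 of these held none of the 3 motifs in the 250 bases before the start. Cxcl9 held the GGG and TTCC motif at -130 and -42 from the start site, and Cxcl1 the GGG and TTTCC motif at -89 and -71. Among all 27025 promoters 5.61% held the GGG and TTCC motif, 1.65% the GGG and TTTCC motif and 3.46% the double GAAA motif. Of the interferon-stimulated list 7 of 16 promoters (43.8%) held the double GAAA motif, and of the maturation list 1 of 13 (7.69%). Matches to the first and second spelling can overlap, and a match describes letters only.

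With YAP1S127A, 10 of 5677 genes passed (0.176%), 8 higher (0.141%) and 2 lower (0.0352%), and most of the 8 were highest in migratory cells. Tnfrsf4 (OX40, chr4:156013843-156016612, plus strand), a costimulatory receptor of the TNF receptor family, was at 14.4 and 12.4 in N, 41.2 and 6.93 in E, 65 and 68.8 in Y, and 244 and 87 in EY CPM. All 4 libraries with YAP1S127A lay above all 4 without (a gap that 2.47% of 3001 genes showed upwards and 2.97% downwards, and 21.0% of genes in either direction in the 5 libraries), and the log2 fold change was 2.43 ± 0.41 (edgeR adjusted p = 0.0420). By subset it was at 0 CPM in the cDC1 subset, 0 in the Cd209a subset and 137 in the migratory subset, and UMIs were found in 24 cells. All other low-keratin cells held it at 130 CPM against 58.8 in the members, so it did not mark them. EY1, its highest library, also had the highest T cell marker sum in dendritic cells (223 CPM), and the part of other cells was not tested. In Y1 the 38 Tnfrsf4 UMIs lay in 2 cells and 1 of these gave 26, so the place of Y1 above the libraries without YAP1S127A rests on few cells. Pdcd1lg2, the PD-1 ligand PD-L2, was at 0 and 23.3 in N, 24.7 and 132 in E, 123 and 104 in Y, and 217 and 313 in EY CPM (log2 fold change 2.54 ± 0.41, edgeR adjusted p = 0.0420). E2, which was not in the fit, reached the level of the Y libraries there. C1q macrophages held Pdcd1lg2 at 0 to 14.1 CPM without YAP1S127A and 23.3 to 80.1 with it.

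Secreted factors formed the next group. Cxcl1 (chr5:90891241-90893115, plus strand), which attracts neutrophils through CXCR2, was at 0 and 0 in N, 8.24 and 0 in E, 51.3 and 59.5 in Y, and 130.3 and 52.2 in EY CPM. It was listed at 0 in both N libraries and in E2, and the log2 fold change was 4.90 ± 0.72 (edgeR adjusted p = 0.0420). Its 91 UMIs lay in 18 cells, and C1q macrophages of the same libraries had 249 and 360.1 in N, 199 and 188 in E, 276 and 300.5 in Y, and 362 and 492 in EY CPM, over 5 times the level in dendritic cells of N and E. Nrg1, a growth factor for ErbB receptors, measured 0 and 7.76 in N, 24.7 and 13.9 in E, 63.2 and 70.7 in Y, and 147 and 104 in EY CPM (log2 fold change 2.78 ± 0.46, edgeR adjusted p = 0.0420), every library with YAP1S127A above every one without. Pgf, placental growth factor, was at 0 and 18.6 in N, 12.4 and 55.5 in E, 168 and 167 in Y, and 76 and 34.8 in EY CPM (log2 fold change 2.97 ± 0.45, edgeR adjusted p = 0.0420), where EY2 fell below E2. Cxcl3, a close relative of Cxcl1 with which reads could be confused, also passed, at 0 and 0 in N, 0 and 6.93 in E, 30.8 and 48.4 in Y, and 38 and 0 in EY CPM. C1q macrophages held Nrg1 at 11.2 to 36.4 CPM without YAP1S127A and 72.7 to 132 with it. They held Pgf at 8.16 to 71.1 CPM without and 82.3 to 178 with it, so both genes were higher with YAP1S127A in macrophages as well.

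Cish, a suppressor of cytokine receptor signalling that STAT5 induces, was spread over more cells than the others. It measured 57.7 and 9.31 in N, 33 and 55.5 in E, 145 and 189.8 in Y, and 185 and 139 in EY CPM, with UMIs in 85 cells and no overlap between the arms (log2 fold change 3.34 ± 0.49, edgeR adjusted p = 0.0420). By subset its level was 33.2, 139.9 and 128 CPM in cDC1, Cd209a and migratory cells. C1q macrophages held Cish at 5.1 to 28.2 CPM without YAP1S127A and 38.4 to 117 with it, so it was higher there as well. The cationic amino acid transporter gene Slc7a2 was the eighth gene that rose. Lyz2, the lysozyme gene of myeloid cells, fell, at 245 and 452 in N, 103 and 208 in E, 90.6 and 138 in Y, and 10.9 and 87 in EY CPM, and so did Cxcl9 (log2 fold change -2.03), which was lower in Y than in N and lower in EY than in E. Of the 10 genes, 8 moved the same way in the 3 libraries left out, and Cxcl3 and Slc7a2 did not. This compares EY2 alone with the mean of N1 and E2 and counts any difference in level. For Cxcl9 it was 487 against 522 CPM and for Pgf 34.8 against 27.7. The share of all genes that match in this way was not computed. Lyz2, Cxcl9, Cxcl3 and Slc7a2 fall outside the naming rule and are named because so few genes passed. In the migratory subset alone the 6 named genes kept their sign, with log2 fold changes from 1.62 to 3.93, and none of them passed there (edgeR adjusted p from 0.0616). The count is not stable: it was 0 without Y1 (341 at an unadjusted p below 0.05), 2 without Y2 and 185 without N2, and DESeq2 called 19.

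Over all 8 libraries 29 of 3001 genes passed for YAP1S127A (0.966%), 19 higher (0.633%) and 10 lower (0.333%), and 5 of the 10 genes above were among them. Ramp3, which modifies receptors for calcitonin-family peptides, was at 14.4 and 76 in N, 124 and 104 in E, 215 and 313 in Y, and 629.8 and 922 in EY CPM (log2 fold change 2.45 ± 0.33, edgeR adjusted p = 0.00505). Tnfrsf9 (4-1BB), a second TNF receptor family member, measured 0 and 10.9 in N, 53.6 and 34.7 in E, 76.9 and 195 in Y, and 315 and 157 in EY CPM (edgeR adjusted p = 0.0123). Over all libraries it was at 98.2 CPM in the members and 99.3 in the other low-keratin cells. Fth1 (chr19:9980598-9985098, plus strand), the heavy chain of the iron store ferritin, was at 4387 and 4563 in N, 4969.9 and 2739 in E, 9381 and 11473 in Y, and 7026 and 8457 in EY CPM (log2 fold change 1.14 ± 0.22, edgeR adjusted p = 0.0206), and Txnrd1, a thioredoxin reductase gene, at 57.7 and 68.3 in N, 140.1 and 146 in E, 178 and 229 in Y, and 369 and 244 in EY CPM. In all of these the 4 libraries with YAP1S127A lay above the 4 without. Il7r, Vdr, Idi1 and Foxn3 were also higher. Fos fell, at 2237 and 2197 in N, 1162 and 1844 in E, 1017 and 1033 in Y, and 331 and 574 in EY CPM (log2 fold change -1.40 ± 0.26, edgeR adjusted p = 0.0206), as did Nr4a1, Fgl2, Eno3, Rnase6 and Cadm1. Fos was at 1708, 2035 and 573 CPM in cDC1, Cd209a and migratory cells, so lower Fos sums and a higher migratory share go the same way.

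Chemokines of maturation were spread widely among the libraries. Ccl17 (chr8:94810453-94812036, plus strand), which draws CCR4-bearing T cells, was at 0 and 14 in N, 152 and 27.7 in E, 774 and 2666 in Y, and 1770 and 1862 in EY CPM. All 4 libraries with YAP1S127A lay above the 4 without, but the test did not pass in 5 libraries (log2 fold change 5.08, edgeR adjusted p = 0.651) or in 8 (5.33 ± 0.89, edgeR adjusted p = 0.0613). Within the migratory cells Ccl17 had 0 UMIs in the 12 cells of N and in the 2 of E2, 218 CPM in E1, 902 and 3106 in Y, and 1643 and 2285 in EY. Within the Cd209a subset it was at 29.6 CPM in N2, 187 and 46.4 in E, and 2788 and 3016 in Y. These values rest on few cells in a library, and EY had no cell in the Cd209a subset. Macrophages had 453 and 3.57 in N, 30.2 and 329 in E, 438 and 1116 in Y, and 300 and 78.2 in EY CPM, with N1 as high as Y1. Ccl22, the other CCR4 ligand, measured 129.9 and 253 in N, 404 and 277 in E, 258 and 1728 in Y, and 1433 and 1966 in EY CPM and was not above the rest in Y1 (edgeR adjusted p = 0.856). Il12b ran the other way, at 115 and 368 in N, 663 and 506 in E, 37.6 and 11.2 in Y, and 277 and 34.8 in EY CPM, without passing (edgeR adjusted p = 0.457).

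Hypoxia and glycolysis genes were higher as a list with YAP1S127A. All 17 tested members had a positive log2 fold change (median 0.66 beside -0.004 over all genes), although none passed in edgeR (lowest adjusted p 0.107, Bnip3). In all 8 libraries 15 of 15 were positive (median 0.72), and 6 of these 15 had every library with YAP1S127A above every one without, against 2.47% of all genes. The summed level was 2569 and 3050.4 in N, 3771 and 4368 in E, 6019 and 5583 in Y, and 4599 and 7621 in EY CPM. Gapdh, a glycolytic enzyme gene, measured 837 and 846 in N, 1026 and 1213 in E, 1529.9 and 1284 in Y, and 1449.7 and 1757 in EY CPM, and Bnip3, a mitophagy gene induced by low oxygen, 0 and 15.5 in N, 4.12 and 6.93 in E, 66.7 and 108 in Y, and 38 and 34.8 in EY CPM. Hilpda, a lipid droplet gene induced by low oxygen, was at 0 and 26.4 in N, 98.9 and 0 in E, 161 and 197 in Y, and 119 and 139 in EY CPM. Macrophages also had their lowest sums in N, at 4056 and 4406 in N, 5013 and 5926 in E, 9942 and 6216 in Y, and 9827 and 10640.5 in EY CPM. Of the YAP target list 2 of 7 measured genes were tested and neither passed.

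The study's main contrast, EY against N, rests on 1 library of each for genes in the 5-library fit. There 270 of 6731 genes passed (4.01%), 108 higher (1.6%) and 162 lower (2.41%), 5 of which (Fscn1, Clec9a, Cd209a, Xcr1 and Cd74) had been used to pick the cells. DESeq2 called 25, of which 23 were shared, and with all 8 libraries 136 passed. The EY1 cells were 10 migratory cells and 1 unassigned cell, whereas N2 had 11 migratory cells of 37, so subset and genotype cannot be told apart in this contrast. Summed markers of T cells were at 223 CPM in EY1 against 0 to 67.0 in the other 7 libraries, and of neutrophils at 918 in EY1 and 400.2 in EY2 against 0 to 104. Their part in the result was not tested.

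The genes named for a rise were low in number of cells. Cxcl1 was at least 28.0-fold higher in EY1 than the limit of 3 UMIs allows in N2, and Icos, a costimulatory receptor best known from T cells, at least 17.5-fold, at 0 and 0 in N, 4.12 and 0 in E, 15.4 and 16.7 in Y, and 81.4 and 52.2 in EY CPM with 12 cells in all. Apoc2, an apolipoprotein gene, was at least 16.3-fold higher and Vcam1, an adhesion molecule gene, at least 12.8-fold, with 6 cells each. Macrophages held Apoc2 at 24.8 to 291 CPM. For Apoc2, 52.2% of UMIs lay in 1 cell of EY2, and for Vcam1 61.1% in 1 cell of EY1. Gm15056 was also among the genes named for a rise.

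The genes named for a fall were listed at 0 in EY1. Mpeg1, a pore-forming protein of phagocytes, was at 433 and 279 in N, 259.6 and 215 in E, 193 and 94.9 in Y, and 0 and 69.6 in EY CPM, at least 17.1-fold lower. Rab7b was at least 12-fold lower and Sept3, a septin gene, at least 8.57-fold, at 332 and 139.6 in N, 37.1 and 34.7 in E, 145 and 63.3 in Y, and 0 and 69.6 in EY CPM. Itgae (CD103), the integrin chain of cDC1 and other tissue-resident cells, measured 28.9 and 124 in N, 49.5 and 34.7 in E, 157 and 100.5 in Y, and 0 and 52.2 in EY CPM, at least 7.62-fold lower. Ubash3b and Rassf4 were each at least 5.33-fold lower. EY2 held UMIs of all 6, at 34.8 to 69.6 CPM. Mpeg1, Rab7b and Sept3 were among the genes highest in the cDC1 subset, of which EY1 held no cell.

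By list, maturation genes and cDC1 genes moved in opposite directions in EY against N, beside 4.01% of all genes called. The cDC2 list went the way of the cDC1 list, with 7 of 9 tested genes negative (median log2 fold change -1.68). Of the maturation list 4 of 17 tested genes passed (Il4i1, Socs2, Nudt17 and Samsn1), all higher, and none of the 17 had a negative log2 fold change (median 1.25 beside -0.08 over all genes). Samsn1 was at 245 and 396 in N, 593 and 624 in E, 397 and 506 in Y, and 1444 and 1183 in EY CPM, with both EY libraries above the other 6. Of the costimulatory and checkpoint list 5 of 11 passed, all higher (Cd40, Cd274, Pdcd1lg2, Cd70 and Cd200). Of the cDC1 list 4 of 9 passed, all lower (Cadm1, Naaa, Itgae and Rab7b), with a median of -3.72. Naaa was at 577 and 397 in N, 107 and 319 in E, 229 and 128 in Y, and 10.9 and 17.4 in EY CPM. Of the MHC class II list 11 of 12 tested genes had a negative log2 fold change (median -0.76), among them H2-Aa, H2-Ab1, H2-DMa and H2-DMb1. H2-DMb1, which helps load peptides onto MHC class II molecules, measured 621 and 481 in N, 321 and 437 in E, 627 and 207 in Y, and 114 and 104 in EY CPM. Of the immediate early and heat shock list 5 fell and 2 rose among 15, and of the chemokine receptor list 2 of 7 fell.

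The other lists held fewer calls. Irf4 rose and Klf4 fell on the cDC2 list, and Cbfa2t3 fell on the transcription factor list. Isg15 rose alone of 19 interferon-stimulated genes, Cxcl10 alone of 11 chemokines, Il1rn alone of 9 cytokines and Hilpda alone of 18 hypoxia genes. Top2a, Tyms and Rrm2 rose of 18 cell cycle genes, Cd63 rose and Spp1 fell of 9 lysosomal and lipid genes, Il4i1 rose of 3 suppressive enzymes and Axl rose of 2 YAP targets. None of 13 MHC class I genes and none of 6 pattern recognition genes passed in edgeR. Cell cycle calls rest on few cells: Top2a was found in 19 cells, with 26.3% of its UMIs in 1 cell of EY1.

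The same lists were read for the single transgenes, where 0.176% (YAP1S127A) and 0.106% (E6-E7) of all genes passed. All 9 tested cDC1 genes were negative for YAP1S127A (median -0.60) and 7 of 9 for E6-E7 (median -1.05), none passing in 5 libraries. Over 8 libraries Cadm1 passed as lower for YAP1S127A and Wdfy4 as lower for E6-E7. Of the maturation genes 14 of 17 were positive for YAP1S127A (median 0.46) and 15 of 17 for E6-E7 (median 1.08), with Socs2 passing for E6-E7. Costimulatory and checkpoint genes were positive for E6-E7 in 8 of 10 (median 0.80). MHC class II genes were negative for YAP1S127A in 10 of 12 (median -0.44), and MHC class I genes in 12 of 13 (median -0.34), against 10 of 13 positive for E6-E7. Immediate early and heat shock genes were negative for YAP1S127A in 12 of 15 (median -0.69) and for E6-E7 in 11 of 15 (median -0.50). Of the cell cycle list 12 of 14 were positive for YAP1S127A, and the sum was highest in N1, at 2020.4 CPM. The cDC2 list was negative in 6 of 9 and 8 of 9, the transcription factors in 11 of 20 and 8 of 20, and the chemokine receptors in 4 of 4 and 4 of 4. Positive for YAP1S127A and for E6-E7 were 5 and 6 of 9 chemokines, 5 and 6 of 8 cytokines, 5 and 4 of 8 lysosomal and lipid genes, 4 and 3 of 5 pattern recognition genes, and 2 and 3 of 3 suppressive enzymes.

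H2-Eb1 (chr17:34305867-34316674, plus strand), which encodes the beta chain of the MHC class II molecule I-E, split the libraries across groups. In dendritic cells it was at 3983 and 5230.4 in N, 4616 and 291 in E, 4109 and 169 in Y, and 2992 and 4124 in EY CPM. E2 and Y2 were at 169 to 291 CPM and the other 6 libraries at 2992 to 5230. The same 2 libraries were low in C1q macrophages (185 to 522 against 2403 to 6265 CPM) and in Cd207 cells (173 to 355 against 4318 to 6602 CPM). H2-Aa, the I-A alpha chain, was not low in them (8528 to 11676 CPM against 5886 to 10712). For each 100 UMIs of H2-Aa in dendritic cells there were 1.99 to 2.49 of H2-Eb1 in E2 and Y2, and 45.0 to 56.4 in the others. The difference divides replicates of E and of Y, and no test of a transgene captured it (edgeR adjusted p = 0.967 for YAP1S127A).

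Whether both transgenes together differed from the sum of their separate effects was tested by the interaction, in which N, E and EY each had 1 library and 1 residual degree of freedom was left. It called 51 of 6731 genes (0.758%), 16 higher (0.238%) and 35 lower (0.52%), DESeq2 called 0 (59 at an unadjusted p below 0.05), and 4 passed with all 8 libraries. The lower genes included interferon-stimulated ones. Ifit2 was at 0 and 0 in N, 379 and 249.6 in E, 5.13 and 27.9 in Y, and 0 and 52.2 in EY CPM, Isg20, an exonuclease gene, at 28.9 and 32.6 in N, 239 and 173 in E, 13.7 and 31.6 in Y, and 0 and 17.4 in EY CPM, and Ifit3b passed too. Of the 19 tested genes of the interferon list 6 passed, all lower (Ifit2, Irf7, Oasl1, Oasl2, Usp18 and Slfn5). These genes were high in E and near the N level in EY1. Hp, at 0 to 57.7 CPM in dendritic cells and 48.1 to 546 in macrophages, and H2-M2 were also named for a fall, H2-M2 at 0 and 1.55 in N, 173 and 34.7 in E, 83.8 and 78.1 in Y, and 10.9 and 122 in EY CPM.

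Among the 6 higher interaction genes that were named, 4 are known from other blood cells. S100a8 and S100a9, the calprotectin subunits of neutrophils, were at 0 and 6.21 in N, 0 and 0 in E, 37.6 and 5.58 in Y, and 478 and 226 in EY and 0 and 12.4 in N, 0 and 6.93 in E, 46.2 and 9.3 in Y, and 364 and 157 in EY CPM. In EY1 and EY2 the neutrophil marker sum of the other low-keratin cells was 118909 and 95531 CPM, against 71.0 to 19742 in the other 6 libraries. Hba-a1 and Hbb-bs, globin genes of red cells, were at 76.0 and 109 CPM in EY1, 35.7 and 60.5 in N2, and 0 and 0 in EY2. The erythroid sum of the other low-keratin cells was 934 CPM in EY1, 2105 in N2 and 4.45 in EY2. Ifitm6 and Top2a completed the genes named for a positive interaction. Ifitm6 was at 0 and 54.3 in N, 0 and 0 in E, 3.42 and 1.86 in Y, and 27.1 and 0 in EY CPM, so EY lay below N2. Of its UMIs 37.2% lay in 1 cell of N2. Macrophages of the same libraries held S100a8 at 19.3 and 66.8 in N, 23.1 and 86.8 in E, 633 and 108 in Y, and 4717 and 4217 in EY CPM. The part of RNA from other cells in these levels was not tested.

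The YAP1S127A effect in dendritic cells was compared with that in C1q macrophages of the same 5 libraries. The difference passed for 32 of 7865 genes (0.407%), 17 with a larger (0.216%) and 15 with a smaller (0.191%) log2 effect in dendritic cells. Cxcl1 differed by 4.74 ± 0.74 (edgeR adjusted p = 0.00674, DESeq2 adjusted p = 0.0522): macrophages held it in every group and dendritic cells mainly with YAP1S127A. Tcea3, an elongation factor gene, was at 0 and 3.1 in N, 0 and 0 in E, 32.5 and 134 in Y, and 43.4 and 0 in EY CPM in dendritic cells and 12.4 and 9.69 in N, 3.55 and 7.42 in E, 2.02 and 11.6 in Y, and 0.469 and 6.86 in EY CPM in macrophages. Plek2, a pleckstrin family gene, was at 0 and 3.1 in N, 41.2 and 34.7 in E, 49.6 and 42.8 in Y, and 65.2 and 122 in EY CPM in dendritic cells and 30.3 and 17.3 in N, 27.5 and 20.8 in E, 4.88 and 8.96 in Y, and 3.28 and 4.11 in EY CPM in macrophages, and Apbb2 also differed. These 4 passed in all 8 libraries as well (edgeR adjusted p from 6.93e-05 to 0.00123). Hist1h1b and Nusap1, genes of dividing cells, rest on few cells, with 54.1% and 33.8% of UMIs in 1 cell of EY1.

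Genes with a smaller effect in dendritic cells included Ptgs2, the cyclooxygenase-2 gene, at 14.4 and 60.5 in N, 86.5 and 0 in E, 44.4 and 37.2 in Y, and 27.1 and 34.8 in EY CPM in dendritic cells and 161 and 108 in N, 129 and 136 in E, 289.5 and 224 in Y, and 704 and 330.5 in EY CPM in macrophages. In macrophages every library with YAP1S127A was above every one without, and in dendritic cells the arms overlapped. The difference of the log2 effects was -2.66 ± 0.48 (edgeR adjusted p = 0.0207). Ece1, an endothelin-processing protease gene, was at 159 and 69.8 in N, 57.7 and 118 in E, 125 and 67 in Y, and 65.2 and 34.8 in EY CPM in dendritic cells and 16.5 and 9.18 in N, 13.3 and 28.9 in E, 65.8 and 55.6 in Y, and 53 and 50.7 in EY CPM in macrophages (difference -2.25 ± 0.47, edgeR adjusted p = 0.0371). Bbx, P2ry14 and Gcnt2 differed in the same direction. Ccl5 passed too, but 48.0% of its UMIs lay in 1 cell of E1, and without the migratory subset its difference turned to 0.18. By list, beside 0.407% of all genes, those that passed with the smaller effect in dendritic cells were Naaa of 10 cDC1 genes, Gbp2 of 20 interferon-stimulated genes, Il1b of 13 cytokines, Ccl5 of 12 chemokines and Ptgs2 of 6 suppressive enzymes. Birc5 and Rrm2 of 18 cell cycle genes passed with the larger effect, and the other 12 lists held no call. For Ccl17, H2-Eb1 and the genes of the hypoxia list the difference between the cell types did not pass.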

How the data were processed

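Viable cells sorted from tongue epithelium were profiled by 3′ droplet sequencing. The deposited matrices hold raw UMI counts per gene and barcode, made by the authors with Cell Ranger on mm10, as the submitters' processing notes name it without a version. Groups came from the labels. The cell limits, the members and the 18 gene lists were chosen with earlier results of these data known. Scanpy 1.11.5 (Scrublet) called 0.0140 to 2.08% of barcodes as doublets and no member. In E1, E2 and EY1 it called under 0.5%, so it did not work there.

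UMIs of the dendritic cells were summed per library and tested with edgeR 4.0.16 in R 4.3.3 (robust quasi-likelihood, TMM scaling, filterByExpr, Benjamini-Hochberg over all genes tested), with DESeq2 1.42.0 as an alternative. Scripts were tested on simulated counts. At least 10 cells a library were required, which left out N1, E2 and EY2. SE was taken from the F statistic (size of the log2 change over the root of F). Named genes were the 6 largest rises and falls among called genes with at least 50 CPM in 1 arm and no overlap between arms. The dendritic share was compared over 70 labellings by exact permutation tests with Python 3.11.15 and scipy 1.17.1. The same tests of subset shares are not reported, since the rule's genes set the subsets. Alternatives changed the scaling, the filter, the minimum of cells, the cell limits, the depth, the subsets and the libraries included. Clec7a, Ctgf, Cyr61 and Mx1 were not analysed here, and results for a few other genes are not reported here.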

Additional observations from a re-analysis of the deposited data

Results flagged for a closer look

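The interaction of the transgenes passed for 51 genes in dendritic cells, a difference between the E6-E7 effects with and without YAP1S127A. The edgeR adjusted p was 0.000959 for Ifitm6, 0.00401 for S100a9, 0.0498 for S100a8, 0.0119 for Top2a, 0.000959 for Hba-a1 and 0.000142 for Hbb-bs, which were higher than the sum of both effects. It was 1.2e-08 for Ifit2, 0.00689 for Hp, 0.0460 for Ifit3b, 1.31e-10 for H2-M2 and 0.000473 for Isg20, which were lower. N, E and EY had 1 library each in that fit, and with all 8 libraries none of the 7 of these genes that were tested passed (edgeR adjusted p from 0.162 for Isg20 to 0.865 for Top2a).

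The YAP1S127A effect differed between dendritic cells and C1q macrophages for 32 genes. Larger in dendritic cells were Hist1h1b (edgeR adjusted p = 0.0119), Nusap1 (0.00206), Tcea3 (0.00674), Apbb2 (0.0144), Cxcl1 (0.00674) and Plek2 (0.00677). Smaller were Ptgs2 (edgeR adjusted p = 0.0207), Ccl5 (0.00257), Bbx (0.0366), Ece1 (0.0371), P2ry14 (0.0431) and Gcnt2 (0.0144). In all 8 libraries 8 of the 12 passed, and Hist1h1b (0.817), Nusap1 (0.672), Ptgs2 (0.581) and Ccl5 (0.944) did not.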

How the results depend on the processing

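Of 116 values of the 8 shares under alternatives, 108 kept their direction. Those that turned were the YAP1S127A difference in dendritic share over all kept cells (0.060 points), the cDC1 difference for YAP1S127A after thinning (10.6) and the Cd209a difference for E6-E7 after thinning (-2.98), without upper limits (-2.31), from 500 genes (-0.846) and from 3 markers (-2.15). Leaving out 1 library moved that last difference from -12.2 (E2) to 6.84 (EY1), with -0.941 without Y1. The ranges were -0.961 to -0.0228 points for the dendritic share with YAP1S127A and -1.16 to -0.218 with E6-E7, -22.8 to -8.31 and -27.5 to -11.0 for cDC1, -23.2 to -8.74 for Cd209a with YAP1S127A, and 24.6 to 41.9 and 19.8 to 40.6 for the migratory share.

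Counts of called genes depended on the setting, and the cause was not tested. For YAP1S127A, E6-E7 and the difference from macrophages, in this order, they were 148, 151 and 138 with no filter on low counts, 92, 94 and 62 with at least 20 cells a library, and 0, 0 and 2 without the migratory subset (156, 239 and 361 at an unadjusted p below 0.05 in edgeR). Without cells holding a UMI of 8 lymphocyte and neutrophil genes they were 57 and 56 for the transgenes. DESeq2 called 19, 25 and 18, and 25 for EY against N and 0 for the interaction. Leaving out 1 library gave 0 (Y1) to 185 (N2) for YAP1S127A, 0 (Y1 and Y2, 375 and 386 unadjusted) to 191 (N2) for E6-E7, 48 to 184 for the difference from macrophages, and 206 for EY against N. For E6-E7 the count was 109 without E1 and 94 without EY1. Chosen after seeing the data, all 8 libraries gave 29, 33 and 61, with 136 for EY against N and 4 for the interaction, and the migratory subset alone 2, 1 and 61, with 52 and 10. DESeq2's size factors in edgeR and removal of Scrublet calls left every count within 1.5 times. Named genes kept their sign, apart from Ccl5 in the difference from macrophages (0.18 without the migratory subset). No paired analysis was possible because replicate numbers were given in accession order and the labels carry only animal numbers. With 7 to 40 cells a library, depth limits low genes: 1 UMI was worth up to 17.4 CPM.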

Other observations

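The 101 Cd207 cells met the limits on keratin, Cd74, Cd3e, Siglech and C1q and held at least 2 UMIs of Cd207, with no condition on the 7 markers. They are 4 to 25 in a library and showed another order of the maturation chemokines. Ccl22 in them was at 46.7 and 116 CPM in N, 1080 and 2252 in E, 4.09 and 578 in Y, and 13.1 and 0 in EY. Ccl17 was at 12.7 and 53.2 CPM in N, 466 and 1353 in E, 36.8 and 485 in Y, and 26.2 and 183 in EY. Both E libraries were the highest for Ccl22, whereas in dendritic cells Y2 and both EY libraries were. These are values over few cells and were not tested.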
